A study of Mus musculus with 14 samples.

Results

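The ISG15 conjugation system was described by the transcripts of 5 genes in mouse kidney: Isg15, Uba7, Ube2l6, Herc6 and Usp18. The members were taken by gene symbol from the deposited table of read counts, which holds 24421 genes. All 5 passed the filter on low counts and were among the 14854 genes tested. The kidneys came from male C57BL/6J mice, and each of the 14 libraries belongs to 1 of 5 groups. The groups are MnDps at 24 h (2 libraries), Dps at 24 h (3), MnDps at 4 h (3), Dps at 4 h (3) and vehicle, called Control (3). Both injected materials were given intravenously at 18 mg/kg, and the labels give no further description of them, no genotype other than the strain, no age and no time point for the vehicle mice. The groups share strain, sex and tissue. The labels do not say whether libraries of a group came from separate animals, so p-values here measure the spread between these libraries.

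ISG15 is a small protein made of a pair of ubiquitin-like folds, and interferons are known to induce it strongly. It is joined to other proteins by a chain of enzymes like that of ubiquitin. The activating enzyme UBA7 loads it, the conjugating enzyme UBE2L6 (also called UbcH8) carries it, and a ligase of the HERC family transfers it to targets, a role held in mice by HERC6 and in humans by HERC5. USP18 is the protease that takes ISG15 off again, and it also binds the type I interferon receptor subunit IFNAR2 and dampens its signalling. The libraries measure the transcripts of these genes and hold no measure of conjugated protein. In whole kidney, fewer cells of a type and less RNA per cell cannot be told apart.

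In GRCm38 with GENCODE vM21, all members are protein-coding genes. Isg15 (ENSMUSG00000035692.6) lies at chr4:156199424-156200818 on the minus strand, with 2 exons and the shortest transcript, 756 bases. Uba7 (ENSMUSG00000032596.14) lies at chr9:107975505-107984060 on the plus strand, with 22 exons in its longest transcript of 3620 bases. Ube2l6 (ENSMUSG00000027078.14) lies at chr2:84798828-84810335 on the plus strand, with a longest transcript of 1560 bases in 4 exons. Herc6 (ENSMUSG00000029798.11) and Usp18 (ENSMUSG00000030107.10) share chromosome 6, on the plus strand at chr6:57581000-57664632 and chr6:121245906-121270917. Their longest transcripts have 4767 bases in 23 exons and 1771 bases in 11 exons. Uba7 overlaps Gm20661 on its own strand, Herc6 overlaps Gm45193 on its own strand and Gm19244 on the other, and Usp18 overlaps Gm44148 on the other. None of these 4 genes has a row in the counts analysed. Isg15 shares 95.2% identity over 482 bases with AC151275.1, and Ube2l6 shares 95.1% over 508 bases with Gm17167. How the counting treated reads that match several genes, and its strand setting, were not stated in the labels or notes, so the absolute levels of these genes carry that uncertainty.

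The 300 bases around the transcription start (250 before to 50 after) are shown for the members with the largest and the smallest rise at 4 h, Isg15 and Uba7, from RefSeq on GRCm38.p6. Each was read in the direction of transcription. Capitals mark the core of the interferon-stimulated response element (ISRE), a sequence found in front of many genes that interferon induces, searched as GAAANNGAA followed by a further A, on both strands.
Isg15, chr4:156200769-156201068, minus strand: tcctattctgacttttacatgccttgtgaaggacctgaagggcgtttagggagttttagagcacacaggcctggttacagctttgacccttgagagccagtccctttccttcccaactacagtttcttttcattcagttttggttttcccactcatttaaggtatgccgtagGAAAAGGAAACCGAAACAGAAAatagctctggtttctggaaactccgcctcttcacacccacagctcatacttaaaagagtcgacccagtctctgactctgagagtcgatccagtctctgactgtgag
Uba7, chr9:107975317-107975616, plus strand: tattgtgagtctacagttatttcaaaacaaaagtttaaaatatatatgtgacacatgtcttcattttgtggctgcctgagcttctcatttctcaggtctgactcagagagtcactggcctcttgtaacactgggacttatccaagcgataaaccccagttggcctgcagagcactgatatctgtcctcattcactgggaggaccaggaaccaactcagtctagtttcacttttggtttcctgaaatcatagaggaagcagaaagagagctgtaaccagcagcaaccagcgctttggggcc

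Promoters of 4 of the 5 members were matched in the RefSeq table, all but Usp18. The Isg15 promoter held 3 matches that overlap one another, starting 78, 72 and 66 bases before the transcription start and forming a run of 22 bases. The Uba7 window held none, and neither did the windows of Ube2l6 (chr2:84798578-84798877, plus strand) and Herc6 (chr6:57580742-57581041, plus strand). No match says only that these letters are not in this window. Among 32851 promoters of the same length, 3.44% held the ISRE core. The shorter pattern GAAANNGAA, without that last A and so contained in every ISRE core match, was found in the same 1 of the 4 members and in 8.56% of all promoters. The gamma-activated sequence TTCNNNGAA, known from genes that interferon gamma induces, was found in none of the 4 and in 8.3% of all promoters.

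Total counts ran from 15097093 to 42074942 per library. Counts of the members ran from 47 (Usp18 in control replicate 1) to 9824 (Isg15 in Dps at 4 h replicate 2). Levels are given as CPM, the count relative to the size of the library after scaling by the trimmed mean of M-values. Where genes are compared with each other, CPM was divided by the length of the longest transcript in kilobases. Pairs of replicates were farther apart than counting alone would give, at a chi-square of 7.74 to 29.3 for each degree of freedom. The kidney label was checked with 12 tubule and podocyte markers, none of them at 0, whose summed level was 13400 to 15500 CPM in MnDps at 24 h, 14800 to 15400 in Dps at 24 h, 13200 to 14200 in MnDps at 4 h, 14800 to 15000 in Dps at 4 h and 16100 to 18000 in Control.

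Isg15, the modifier itself, was the member that moved most. At 24 h it stood at 13.0 and 10.1 CPM in the MnDps libraries and at 7.31, 11 and 8.84 CPM in the Dps libraries. At 4 h it stood at 260, 266 and 359 CPM after MnDps and at 159, 237 and 167 CPM after Dps. The 3 control libraries held 3.73, 5.39 and 3.31 CPM. Every treated library thus lay above every control, the libraries at 4 h lay far above those at 24 h, and at 4 h each MnDps library lay above each Dps library. Between the materials at 4 h, 20.8% of all tested genes were higher in MnDps at an edgeR adjusted p under 0.05. Against Control at 4 h, the log2 fold change was 6.19 ± 0.25 (SE) for MnDps (edgeR adjusted p = 1.65e-09) and 5.55 ± 0.25 for Dps (edgeR adjusted p = 4.76e-09). These are 73.2-fold (95% interval 50.2 to 107) and 46.7-fold (32.2 to 67.7). Among all genes tested, Isg15 ranked 8 by size of change in MnDps at 4 h and 13 in Dps at 4 h. Per kilobase, its level exceeded that of 98.9% of tested genes in MnDps at 4 h, 98.6% in Dps at 4 h and 48.1% in Control.

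Uba7, the activating enzyme, moved least. It stood at 27.1 and 24.8 CPM in MnDps at 24 h and at 17.4, 23.0 and 16.8 CPM in Dps at 24 h. At 4 h the values were 75.7, 61.7 and 80.4 CPM after MnDps and 64.2, 92.1 and 70.7 CPM after Dps. The controls held 15.4, 16.9 and 13.8 CPM. The libraries at 4 h did not overlap any other group, MnDps and Dps overlapped each other at 4 h, and the lowest Dps library at 24 h lay within the controls. The log2 fold change at 4 h was 2.25 ± 0.15 for MnDps (edgeR adjusted p = 4.38e-08) and 2.31 ± 0.15 for Dps (edgeR adjusted p = 3.09e-08), or 4.76-fold and 4.97-fold. Per kilobase, Uba7 exceeded 77.1% of genes in MnDps at 4 h, 78.9% in Dps at 4 h and 42.5% in Control.

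Ube2l6, the conjugating enzyme, stood at 20.4 and 14 CPM in MnDps at 24 h and at 11.4, 14.3 and 13.3 CPM in Dps at 24 h. Its values at 4 h were 101, 93.1 and 134 CPM after MnDps and 77.3, 101 and 83.2 CPM after Dps. The controls held 6.81, 9.80 and 6.75 CPM. All treated libraries lay above all controls, while MnDps and Dps overlapped at both times. At 4 h the rise was 3.83 ± 0.20 on the log2 scale for MnDps (edgeR adjusted p = 8.76e-09) and 3.50 ± 0.20 for Dps (edgeR adjusted p = 2.05e-08), or 14.2-fold and 11.3-fold.

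Herc6, the ligase, stood at 15.4 and 13.3 CPM in MnDps at 24 h and at 11.5, 12.2 and 10.9 CPM in Dps at 24 h. At 4 h it stood at 129, 115 and 120 CPM after MnDps and at 151, 175 and 135 CPM after Dps. The controls held 12.7, 11.1 and 11.1 CPM. Its 3 Dps libraries at 4 h all lay above its 3 MnDps libraries at 4 h, and its Dps libraries at 24 h lay around the controls. Between the materials at 4 h, 20.7% of all tested genes were lower in MnDps at an edgeR adjusted p under 0.05. The log2 fold change of MnDps at 4 h over Control was 3.39 ± 0.11 (edgeR adjusted p = 2e-12), or 10.5-fold, and Dps at 4 h gave 13.3-fold (95% interval 11.3 to 15.5). The spread between replicates was small: the coefficient of variation was 6.01% in MnDps at 4 h, 13.0% in Dps at 4 h and 7.98% in Control. Of all genes tested, Herc6 had the smallest p in Dps at 4 h against Control (rank 1) and the rank 3 p in MnDps at 4 h against Control.

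Usp18, the protease that removes ISG15, stood at 9.20 and 7.17 CPM in MnDps at 24 h and at 5.55, 5.83 and 6.88 CPM in Dps at 24 h. At 4 h it stood at 124, 101 and 145 CPM after MnDps and at 90.2, 120 and 95.7 CPM after Dps. The controls held 2.58, 4.07 and 4.33 CPM. Every treated library lay above every control, and MnDps and Dps overlapped at 4 h but not at 24 h. The log2 fold change at 4 h was 5.03 ± 0.19 for MnDps (edgeR adjusted p = 1.28e-10) and 4.76 ± 0.19 for Dps (edgeR adjusted p = 1.88e-10), or 32.7-fold and 27.1-fold. Only Isg15 among the members rose more than the protease at 4 h.

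**Figure D1:**
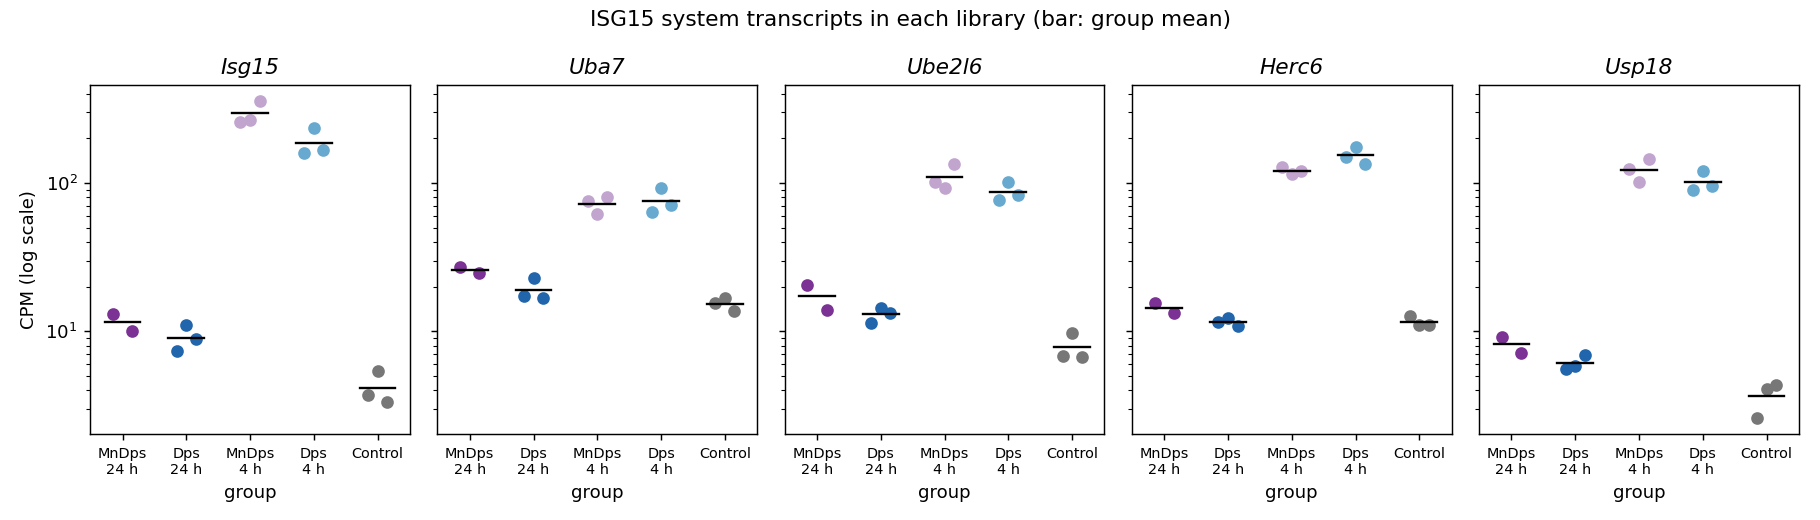
Level of each ISG15 system transcript in each library, in CPM on a log axis, by group; each point is a library and the bar is the group mean. All libraries at 4 h sit between 61.7 CPM (Uba7) and 359 CPM (Isg15), above every library at 24 h and every control of the same gene.

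At 4 h, then, all 5 members were called higher than Control in both treatments. Genes with an adjusted p under 0.05 were called, and calls in the higher direction were made for 22.9% of all tested genes in MnDps at 4 h and for 8.33% in Dps at 4 h. The median log2 fold change of the members was 3.83 in MnDps and 3.73 in Dps, against 0.005 and −0.02 over all genes. These comparisons share the 3 control libraries. All of these calls held in each of 22 alternative fits, which include leaving out each library in turn. With each library's trend of counts with transcript length and GC content removed, the rises in MnDps at 4 h were 5.69 (Isg15), 2.21 (Uba7), 3.46 (Ube2l6), 3.72 (Herc6) and 4.69 (Usp18). In Dps at 4 h they were 5.52, 2.21, 3.46, 3.69 and 4.70 in the same gene order.

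**Figure D2:**
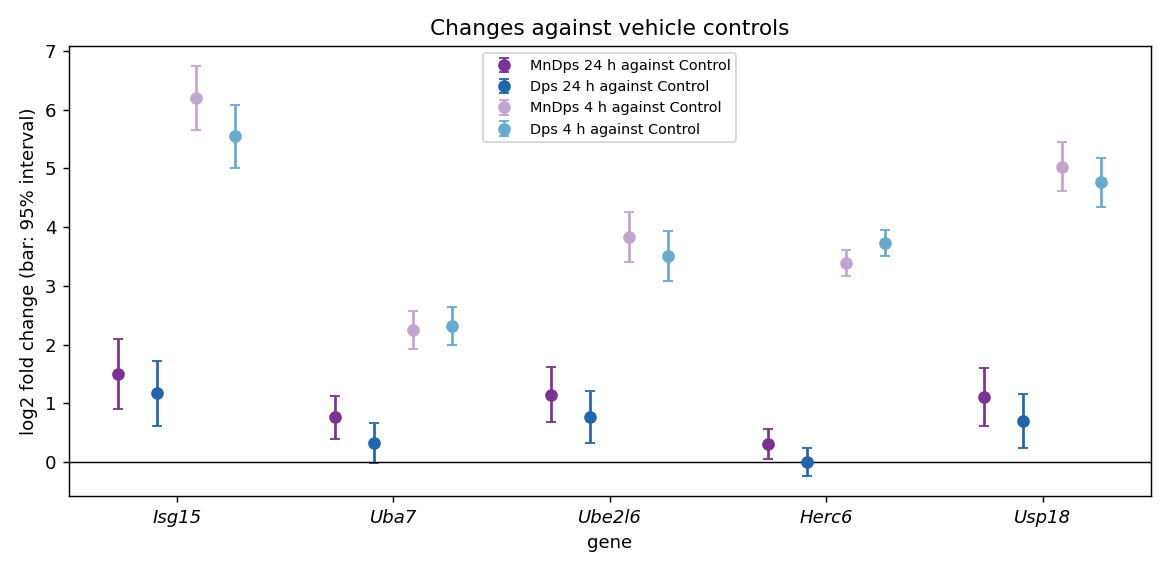
Log2 fold change of each ISG15 system gene over Control in the 4 treated groups; points are edgeR estimates and bars are 95% intervals. The changes at 4 h run from 2.25 (Uba7, MnDps) to 6.19 (Isg15, MnDps), and those at 24 h from 0.00 (Herc6, Dps) to 1.504 (Isg15, MnDps).

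At 24 h the members stood much nearer to the controls, with 4 of 5 called higher in MnDps and 3 of 5 in Dps. Calls in the higher direction covered 4.93% of all tested genes in MnDps at 24 h and 9.64% in Dps at 24 h. The median log2 fold change of the members was 1.11 in MnDps and 0.70 in Dps, against 0.015 and 0.003 over all genes. Isg15 had the largest excess, at 1.504 ± 0.28 in MnDps (edgeR adjusted p = 0.00573) and 1.17 ± 0.26 in Dps (edgeR adjusted p = 0.0097), or 2.84-fold and 2.25-fold. Ube2l6 was at 1.15 ± 0.22 in MnDps (edgeR adjusted p = 0.00645) and 0.76 ± 0.20 in Dps (edgeR adjusted p = 0.02). Usp18 was at 1.11 ± 0.23 in MnDps (edgeR adjusted p = 0.00832) and 0.70 ± 0.21 in Dps (edgeR adjusted p = 0.0343).

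Uba7 and Herc6 differed from the other members at 24 h in what passed the test. Uba7 was higher in MnDps at 24 h (0.76 ± 0.17, edgeR adjusted p = 0.0115), while Dps at 24 h gave 0.32 ± 0.16 (edgeR adjusted p = 0.158) with a 95% interval from −0.01 to 0.66. Herc6 did not pass in MnDps at 24 h (0.31 ± 0.12, edgeR adjusted p = 0.104). In Dps at 24 h it averaged 11.6 ± 0.65 CPM, against 11.6 ± 0.93 CPM in Control (SD, n = 3 each), and its 95% interval ran from 0.85 to 1.18 times the control level (edgeR adjusted p = 0.998). With the length and GC trend removed, Herc6 was called higher in MnDps at 24 h at 0.62 (edgeR adjusted p = 0.00797), and 1 member, Isg15 at 0.83, was called in Dps at 24 h. The calls at 24 h also rested on single libraries: none of the 5 members was called without MnDps at 24 h replicate 1, where adjusted p of the 4 lost calls ran from 0.0641 (Isg15) to 0.103 (Uba7). In Dps at 24 h none was called without control replicate 3, and Isg15 alone was called without Dps at 24 h replicate 2 or 3 or without control replicate 1. The Uba7 call in MnDps at 24 h was also lost without MnDps at 24 h replicate 2 (0.83) and without control replicate 3 (0.68). In Dps at 24 h the Usp18 call was lost without Dps at 24 h replicate 1 (0.75) and with limma voom (0.65), and the Ube2l6 call with a term for deep libraries (0.74).

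The fall between 4 h and 24 h was tested within each material. All 5 members were lower at 24 h than at 4 h after MnDps and after Dps, where calls in the lower direction covered 11.7% and 22.6% of all tested genes. Isg15 fell by 4.69 ± 0.27 on the log2 scale after MnDps (edgeR adjusted p = 1.32e-07) and by 4.38 ± 0.23 after Dps (edgeR adjusted p = 2.2e-08). Its mean at 24 h was 3.91% of that at 4 h after MnDps and 4.81% after Dps. Usp18 followed closely, with 6.66% of its level at 4 h left after MnDps and 5.98% after Dps (log2 change −3.92 ± 0.21 and −4.06 ± 0.18). Uba7, with the smallest rise, also had the smallest fall: 35.7% of its level at 4 h was present at 24 h after MnDps and 25.2% after Dps (log2 change −1.49 ± 0.17 and −1.99 ± 0.15).

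Part of what was left is the level the controls already had. Counted as the share of the excess over the control mean, 2.54% of the Isg15 rise was left at 24 h after MnDps and 2.66% after Dps. For Usp18 the shares were 3.79% and 2.47%, and for Ube2l6 they were 9.28% and 6.61%. Uba7 kept 18.5% of its excess after MnDps and 6.17% after Dps. These shares are ratios of group means, given without a spread. For Uba7, MnDps against Dps at 24 h (edgeR adjusted p = 0.21) and the interaction of material and time (edgeR adjusted p = 0.101) were not called. Herc6 kept 2.53% after MnDps, and after Dps the share was −0.027%, a mean at the control level. All 10 calls of the fall between times held in each of the 22 alternative fits.

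MnDps and Dps were given at the same dose and times, so their levels were compared directly at each time, over 10 tests of members, with p-values adjusted over all genes of a comparison. At 4 h, 41.5% of all tested genes were called (MnDps above Dps in 20.8% and below it in 20.7%), as were 2 members, 1 in each direction. Isg15 averaged 295 ± 55.5 CPM in MnDps at 4 h and 188 ± 42.8 CPM in Dps at 4 h (SD, n = 3 each), a log2 difference of 0.65 ± 0.19 or 1.57-fold (edgeR adjusted p = 0.0142). Herc6 averaged 121 ± 7.28 CPM in MnDps and 154 ± 19.9 CPM in Dps, a log2 difference of −0.34 ± 0.09 (edgeR adjusted p = 0.00695). The other members did not pass. Ube2l6 gave 0.33 with a 95% interval from −0.03 to 0.68 (edgeR adjusted p = 0.134), Usp18 gave 0.27 from −0.05 to 0.59 (0.165), and Uba7 gave −0.06 from −0.36 to 0.24 (0.758).

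These differences at 4 h fell in the order of transcript length. Isg15, with 756 bases, had the most positive value, followed by Ube2l6 (1560 bases), Usp18 (1771), Uba7 (3620) and Herc6 (4767), which had the most negative one. The Herc6 transcript also had the lowest GC content, 39.4% against 50.3% to 54.8% in the other members. Length and GC were removed together, so their parts were not told apart. With the length and GC trend of each library removed, the difference was 0.18 for Isg15 (95% interval −0.14 to 0.49, edgeR adjusted p = 0.424), and Herc6 changed sign to 0.03 (−0.17 to 0.22, edgeR adjusted p = 0.882). Ube2l6, Usp18 and Uba7 then gave 0.00, −0.01 and 0.00, and no member was called. With a term for libraries of more than 30000000 counts, which are Dps at 4 h replicates 1 and 2 and control replicate 3, Isg15 gave 0.65 (edgeR adjusted p = 0.1) and Herc6 gave −0.27 (edgeR adjusted p = 0.115). The Isg15 call was also lost without MnDps at 4 h replicate 3 (0.46), without Dps at 4 h replicate 1 (0.53) and without Dps at 4 h replicate 3 (0.56). Usp18 was called without MnDps at 4 h replicate 2 (0.39, edgeR adjusted p = 0.0469).

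**Figure D3:**
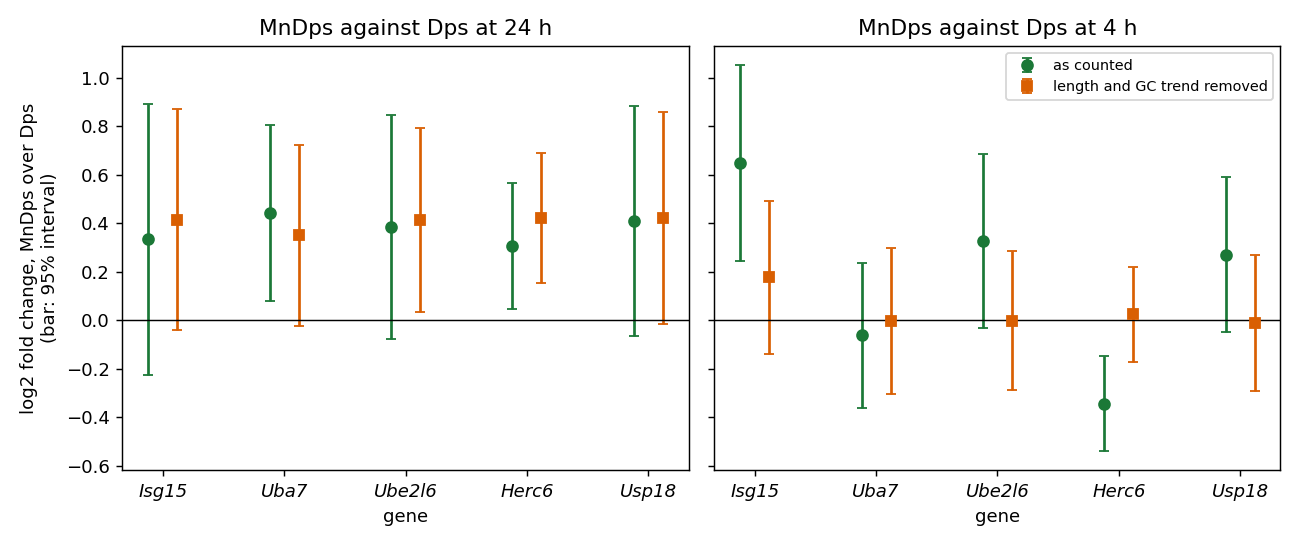
Log2 fold change of MnDps over Dps for each ISG15 system gene at 24 h (left) and 4 h (right); bars are 95% intervals, circles are the fit to the counts and squares the fit with the length and GC trend removed. At 4 h the circles run from 0.65 (Isg15) to −0.34 (Herc6) and the squares from 0.18 to −0.01; at 24 h all points are positive and no gene passed the test.

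At 24 h the estimated difference of MnDps from Dps was positive for all 5 members, between 0.31 (Herc6) and 0.44 (Uba7) on the log2 scale, and none was called. Over all genes 0.815% were called in that comparison. The 95% intervals were −0.23 to 0.89 for Isg15, 0.08 to 0.80 for Uba7, −0.08 to 0.85 for Ube2l6, 0.05 to 0.57 for Herc6 and −0.07 to 0.88 for Usp18. The edgeR p was under 0.05 before adjustment for 2 of the 5, Uba7 and Herc6, whose adjusted values were 0.21 and 0.223. None of the 5 was called by DESeq2 or by limma voom either. The MnDps libraries lay above the Dps libraries without overlap for Uba7, Herc6 and Usp18, an arrangement found for 18.6% of all tested genes.

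The interaction of material and time asked whether the difference between MnDps and Dps was itself different at 24 h and at 4 h. It was called for 1 of 5 members, Herc6, and for 29.4% of all tested genes. For Herc6 the difference at 24 h exceeded that at 4 h by 0.65 ± 0.15 (95% interval 0.33 to 0.97, edgeR adjusted p = 0.00496): MnDps was above Dps by 0.31 at 24 h and differed from it by −0.34 at 4 h. The estimates for the other members were −0.31 for Isg15 (interval −1.01 to 0.38), 0.06 for Ube2l6 (−0.53 to 0.64), 0.14 for Usp18 (−0.43 to 0.71) and 0.50 for Uba7 (0.03 to 0.97), with edgeR adjusted p of 0.508, 0.903, 0.747 and 0.101. These too fell in the order of transcript length, from the shortest to the longest, and they share the libraries at 4 h with the comparison above. With the length and GC trend removed the Herc6 value was 0.40 (95% interval 0.07 to 0.73, edgeR adjusted p = 0.1) and no member was called. Uba7 was called without Dps at 24 h replicate 2 (0.67, edgeR adjusted p = 0.0343).

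Because the members rose by unequal amounts, the make-up of the system changed. As a share of the summed CPM per kilobase of the 5 genes, Isg15 made up 37.1% ± 0.11 in MnDps at 24 h (SD, n = 2), 37.8% ± 2.52 in Dps at 24 h, 67.7% ± 2.10 in MnDps at 4 h, 59.7% ± 1.83 in Dps at 4 h and 28.2% ± 3.05 in Control (n = 3 each). Uba7 made up 17.6%, 16.7%, 3.51%, 5.04% and 22.2% in the same order of groups. Its share at 4 h thus did not overlap that at 24 h or in Control. Ube2l6 made up 26.6% in both groups at 24 h, 12.2% in MnDps at 4 h, 13.5% in Dps at 4 h and 25.8% in Control. Usp18 stayed between 10.8% and 13.9% in the group means.

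The ratio of the modifier to its enzymes was therefore higher at 4 h. Isg15 over Uba7, per kilobase, was 1.95 to 2.29 in the MnDps libraries at 24 h and 2.01 to 2.52 in the Dps libraries at 24 h. It was 16.4 to 21.4 in MnDps at 4 h, 11.3 to 12.3 in Dps at 4 h and 1.15 to 1.53 in Control. Isg15 over Herc6 was 4.77 to 5.30 in MnDps at 24 h and 4.00 to 5.65 in Dps at 24 h, against 12.7 to 18.9 in MnDps at 4 h, 6.65 to 8.57 in Dps at 4 h and 1.86 to 3.07 in Control. The ratio of modifier to protease moved least: Isg15 over Usp18 was 3.29 to 3.31 in MnDps at 24 h, 3.01 to 4.41 in Dps at 24 h, 4.92 to 6.19 in MnDps at 4 h, 4.10 to 4.65 in Dps at 4 h and 1.79 to 3.39 in Control. For all 3 ratios every library at 4 h lay above every control, and the MnDps libraries at 4 h lay above the Dps libraries at 4 h. That gap between materials moved with the length and GC trend: on the log2 scale it was 0.71 for Isg15 over Uba7, 0.99 over Herc6 and 0.38 over Usp18 in the fit to the counts, and 0.18, 0.15 and 0.19 with the trend removed. The shares above were computed without removing it.

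**Figure D4:**
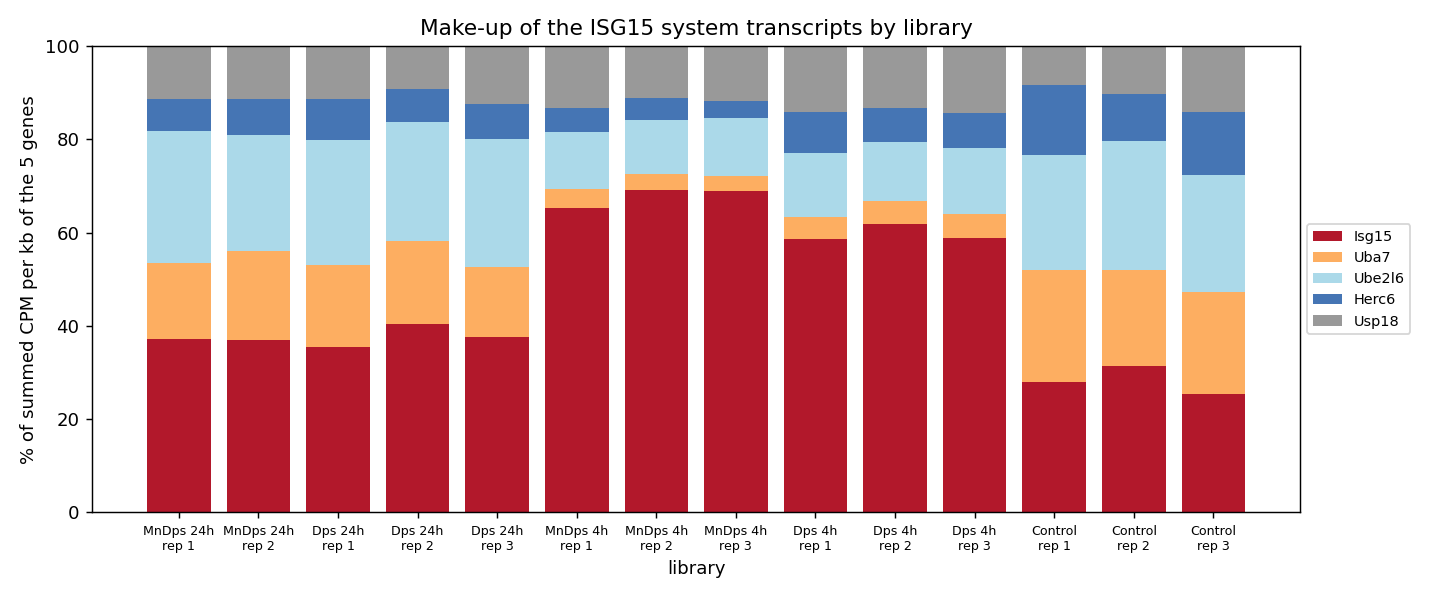
Share of each ISG15 system gene in the summed CPM per kilobase of the 5 genes, by library (stacked bars, percent). The Isg15 share is 65.3% to 69.1% in MnDps at 4 h, 58.5% to 61.8% in Dps at 4 h and 25.3% to 31.4% in Control.

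Each member belongs to a larger family, and the other genes of these families were read beside it. For these lists and those that follow, the all-gene counts at 4 h against Control serve as background. Of 14854 genes, 3399 were higher and 3369 lower in MnDps, and 1237 higher and 931 lower in Dps. With the length and GC trend removed these were 2466 and 3195 in MnDps and 1220 and 2508 in Dps. Of 9 other activating enzymes, MnDps at 4 h had 2 above Control and 1 below, and none was called in Dps at 4 h, where 1 was called by DESeq2 and 1 by limma voom and the edgeR p before adjustment was under 0.05 for 2. Their medians were 0.01 in MnDps and −0.02 in Dps. Uba1, the ubiquitin-activating enzyme, averaged 254 ± 3.78 CPM in MnDps at 4 h, 256 ± 12.8 in Dps at 4 h and 251 ± 17.2 in Control (SD, n = 3 each; edgeR adjusted p = 0.895 and 0.849). Uba6, which activates ubiquitin and the modifier FAT10, gave −0.94 ± 0.19 in MnDps at 4 h (edgeR adjusted p = 0.00107) and 0.12 ± 0.18 in Dps at 4 h (edgeR adjusted p = 0.704). Removing the length and GC trend gave −0.42 for Uba6 in MnDps, which was not called (edgeR adjusted p = 0.0702).

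Of 33 other conjugating enzymes, MnDps at 4 h had 6 above Control and 5 below, and 2 were lower and 31 not called in Dps at 4 h, with medians of 0.003 and −0.11. Ube2l3, the closest relative of Ube2l6, averaged 103 ± 4.91 CPM in MnDps at 4 h, 94.6 ± 4.25 in Dps at 4 h and 102 ± 5.85 in Control (edgeR adjusted p = 0.975 and 0.297). The 4 other HERC ligases were all lower in MnDps at 4 h, with a median of −0.55, and 1 of them, Herc4, was lower in Dps at 4 h (−0.37 ± 0.11, edgeR adjusted p = 0.0278). Herc3, which like Herc6 is a small HERC, was at −0.82 ± 0.17 in MnDps at 4 h (edgeR adjusted p = 0.00198) and −0.24 ± 0.17 in Dps at 4 h (edgeR adjusted p = 0.367). After removal of the length and GC trend, 2 of the 4 were lower in MnDps, with a median of −0.27.

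Of the other USP proteases, 44 of 50 were tested, and MnDps at 4 h had 3 above Control and 18 below, where Dps at 4 h had 5 above and 1 below. These counts became 8 and 10 in MnDps and 4 and 3 in Dps with the length and GC trend removed. Usp25, a protease of ubiquitin chains, had the largest change among them in Dps at 4 h at 0.998 ± 0.12 (edgeR adjusted p = 2.48e-05), and MnDps at 4 h gave 0.36 ± 0.12 (edgeR adjusted p = 0.0267, and 0.0861 when only the groups compared were fitted). Of 19 other ubiquitin-like modifiers, 13 were higher in MnDps at 4 h (8, and 1 lower, with the trend removed), and 1 was higher and 1 lower in Dps at 4 h (2 and 7 with the trend removed). The modifier that rose most after Isg15 was Ubd, which encodes FAT10, at 2.75 ± 0.34 in MnDps at 4 h (edgeR adjusted p = 2.18e-05) and 2.11 ± 0.34 in Dps at 4 h (edgeR adjusted p = 0.000466). In each of the 5 families, the ISG15 system member had the largest rise of the tested genes in both comparisons. The members were chosen with earlier results of these data known, so this ranking is a description.

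**Figure D5:**
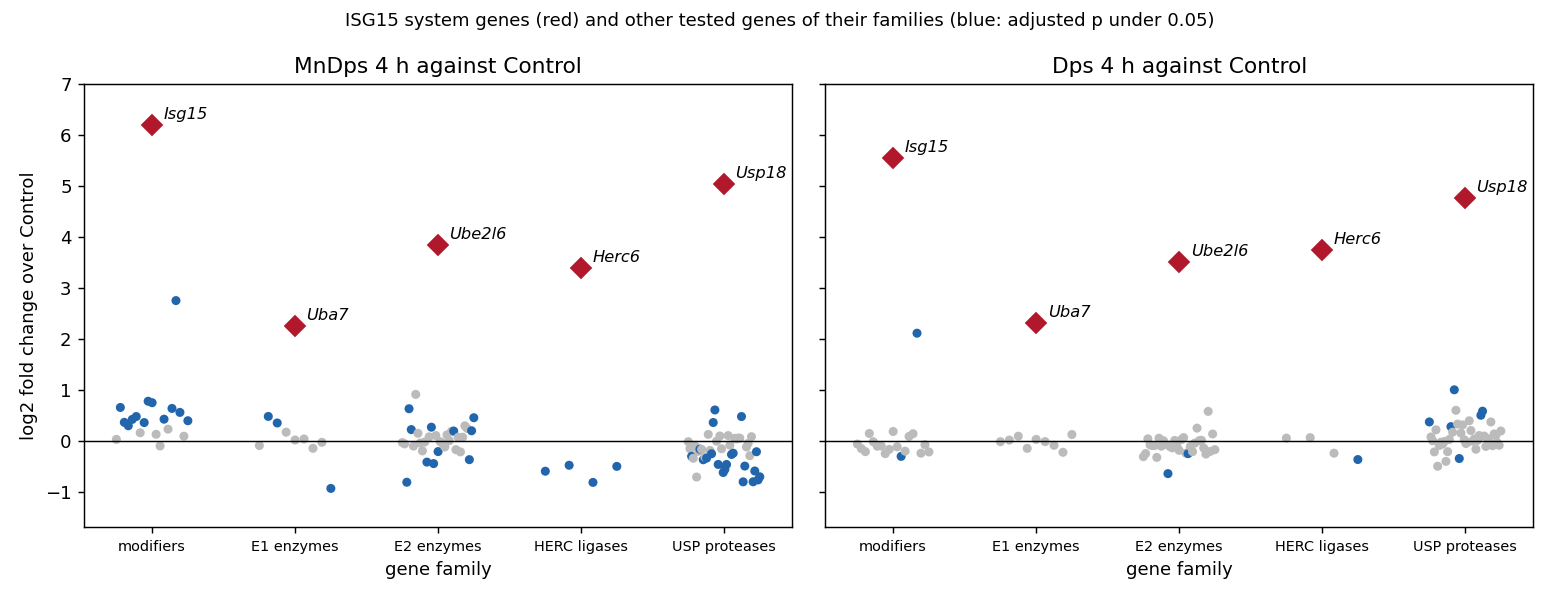
Log2 fold change over Control of the ISG15 system genes (red diamonds) and the other tested genes of their families, for MnDps at 4 h (left) and Dps at 4 h (right); blue points passed an adjusted p of 0.05 and grey points did not. The diamonds run from 2.25 to 6.19 on the left and from 2.31 to 5.55 on the right, each above the rest of its family.

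Other genes tied to ISG15 were read from a list of 11, of which MnDps at 4 h had 1 above Control and 1 below and Dps at 4 h had 2 above. Trim25, another ISG15 ligase, averaged 203 ± 10.8 CPM in MnDps at 4 h, 233 ± 5.63 in Dps at 4 h and 102 ± 4.14 in Control (SD, n = 3 each). Its log2 fold change was 0.99 ± 0.07 in MnDps (edgeR adjusted p = 3.38e-08) and 1.19 ± 0.07 in Dps (edgeR adjusted p = 3.87e-09). Arih1, the gene of the ligase HHARI, was lower in MnDps at 4 h (−0.37 ± 0.09, edgeR adjusted p = 0.00507), but at −0.01 with the length and GC trend removed, and gave 0.02 ± 0.09 in Dps at 4 h. Skp2, which belongs to a ubiquitin ligase known to act on USP18, gave 0.16 ± 0.22 in MnDps and −0.00 ± 0.21 in Dps, with neither called. ISG15 released from cells is known to bind the integrin LFA-1. Its Itgal subunit was higher in Dps at 4 h (0.93 ± 0.25, edgeR adjusted p = 0.0203) and at 0.47 ± 0.26 in MnDps at 4 h (edgeR adjusted p = 0.148), and the Dps call was lost when only the groups compared were fitted (adjusted p = 0.0537). The Itgb2 subunit did not pass at 4 h and was higher at 24 h, by 0.92 ± 0.21 in MnDps and 0.64 ± 0.19 in Dps (edgeR adjusted p = 0.0108 and 0.0274), but in Dps it was not called with the length and GC trend removed (0.56, adjusted p = 0.0772) or with a term for deep libraries.

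Of 25 genes whose proteins are reported to carry ISG15, MnDps at 4 h had 15 above Control and 3 below, and Dps at 4 h had 11 above and 1 below. The median of the 25 was 0.26 in MnDps and 0.22 in Dps. Over all tested genes, higher calls covered 22.9% in MnDps at 4 h and 8.33% in Dps at 4 h. The largest rises of the 25 were those of Ifit1, Ifit3 and Mx1, which are themselves induced by interferon. Mx1 transcripts averaged 36.0 ± 10.9 CPM in MnDps at 4 h, 43.7 ± 14.7 in Dps at 4 h and 1.49 ± 0.19 in Control. The lowest value of the list was −0.632 in MnDps at 4 h and −0.3 in Dps at 4 h. Not called were 7 of the 25 in MnDps and 13 in Dps. Among these, 2 examples picked after their values were seen are Tsg101 and Becn1. Tsg101, of the endosomal sorting machinery, gave 0.07 in MnDps at 4 h and −0.21 in Dps at 4 h. Becn1, of autophagy, gave 0.12 and −0.07.

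The genes that carry the interferon signal were examined as a list of 22, of which 18 were tested. Of these, 12 were higher in MnDps at 4 h and 10 in Dps at 4 h, and the other tested genes of the list were not called. Higher calls covered 22.9% of all tested genes in MnDps at 4 h and 8.33% in Dps at 4 h. Stat2, a factor of type I interferon signalling, rose by 2.78 ± 0.13 in MnDps at 4 h and 2.91 ± 0.13 in Dps at 4 h, and its partner Irf9 by 1.99 ± 0.11 and 1.96 ± 0.11. Irf1, a transcription factor downstream of interferon gamma, rose by 3.19 ± 0.22 in MnDps and 2.72 ± 0.22 in Dps. The edgeR adjusted p of these 3 genes was at most 2.59e-06, the value of Irf1 in Dps at 4 h.

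Irf7 followed another course from the ISG15 system at 24 h. It averaged 222 ± 26.3 CPM in MnDps at 24 h (n = 2), 133 ± 37.6 in Dps at 24 h, 473 ± 89.2 in MnDps at 4 h, 414 ± 62.1 in Dps at 4 h and 15.5 ± 3.80 in Control (SD, n = 3 each). Its log2 fold change at 24 h was 3.85 ± 0.25 in MnDps (edgeR adjusted p = 1.68e-05), where the largest of the members was 1.504 (Isg15). Stat2 was not called at 24 h in either material. Ifnar2, the receptor subunit that USP18 binds, gave 0.27 ± 0.10 in MnDps at 4 h (edgeR adjusted p = 0.0283; 0.16 and not called with the length and GC trend removed) and 0.03 ± 0.10 in Dps at 4 h (edgeR adjusted p = 0.887). Irf3, a sensor-activated factor that can drive Isg15 directly, gave 0.34 ± 0.10 in MnDps at 4 h (edgeR adjusted p = 0.0136; 0.03 with the trend removed) and 0.03 ± 0.10 in Dps at 4 h. The interferon genes on the list were Ifnb1, Ifng, Ifnl2 and Ifnl3, and their transcripts were near the limit of detection. In all 14 libraries together Ifnb1 had 1 count, Ifnl2 had 1 and Ifnl3 had 2, and Ifng had at most 6 in a library. Other interferon genes, among them the Ifna genes, were not examined.

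The genes with the pattern most like each member were found over the 5 group means of log2 CPM, each gene centred on its own mean, as the smallest root mean square difference. The members were chosen for their role with earlier results of these data known, and the 5 points share the libraries, so these are descriptions. Isg15 was closest to Ifit3 (0.16), Ifit3b (0.19) and Ifit1 (0.24), of a family of RNA-binding antiviral proteins. Uba7 was closest to Tlr2 (0.06), a receptor for bacterial lipoproteins, Plekha4 (0.09) and Gm15133 (0.12). Ube2l6 differed from Xaf1 by 0.02, from Oas1a, an antiviral oligoadenylate synthetase, by 0.12 and from the immunoproteasome subunit gene Psmb9 by 0.12. Xaf1 averaged 13.5 CPM in MnDps at 24 h, 10.3 in Dps at 24 h, 88.8 in MnDps at 4 h, 67.8 in Dps at 4 h and 6.22 in Control. Herc6 was closest to the guanylate-binding protein gene Gbp5 (0.06), Trim30a (0.09) and Cmpk2 (0.10), and Usp18 to Mx2 (0.18), Gm12250 (0.18) and Igtp (0.20).

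By the same measure, among the members themselves, Isg15 and Usp18 were the most alike pair at 0.37, followed by Ube2l6 and Herc6 at 0.41, and Isg15 and Uba7 the least alike at 1.53. Of the 15 neighbours, 14 had a promoter in the RefSeq table, and 9 of the 14 held an ISRE core in it. These were Ifit3, Ifit3b and Ifit1 for Isg15, Plekha4 for Uba7, Oas1a for Ube2l6, Gbp5 and Trim30a for Herc6, and Gm12250 and Igtp for Usp18. Neighbours of Uba7, Ube2l6 and Herc6 thus held matches where the member's own window held none.

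Markers of other cell types moved between the groups in which the members moved, and their part in the members' changes was not tested. The 7 neutrophil markers in the table summed to 1.32 to 1.43 CPM in MnDps at 24 h, 1.39 to 2.63 in Dps at 24 h, 10.2 to 18.1 in MnDps at 4 h, 4.93 to 7.20 in Dps at 4 h and 0.573 to 1.32 in Control. All 3 tested neutrophil markers were higher at 4 h in both materials. S100a8 rose by 6.76 in MnDps and 5.17 in Dps, S100a9 by 6.72 and 5.12, and Csf3r by 1.89 and 1.81. Their control means were low, at 0.018, 0.074 and 0.786 CPM. Elane, a protease of neutrophil granules picked after its values were seen, was at 0 in every library. The 13 macrophage and monocyte markers summed to 214 to 216 CPM in MnDps at 24 h, 203 to 222 in Dps at 24 h, 120 to 131 in MnDps at 4 h, 119 to 132 in Dps at 4 h and 135 to 168 in Control. Its markers did not move together at 4 h: 4 of the 13 were higher and 6 lower in MnDps, and 3 were higher and 4 lower in Dps. Ly6c2, of inflammatory monocytes, rose by 2.38 in MnDps at 4 h and 2.41 in Dps at 4 h, and the Fc receptor gene Fcgr1 by 2.28 and 1.81. Mrc1 of the same list went the other way, at −2.195 in MnDps at 4 h (edgeR adjusted p = 0.000144) and −1.321 in Dps at 4 h (edgeR adjusted p = 0.00773). The 7 dendritic cell markers summed to 5.89 to 8.62 CPM in MnDps at 4 h, 7.81 to 10.3 in Dps at 4 h and 11.8 to 15.7 in Control. The 11 lymphocyte markers summed to 3.65 to 5.93 CPM, 4.39 to 4.98 CPM and 5.38 to 9.39 CPM in these 3 groups, and the 7 endothelial markers to 201 to 260 CPM, 207 to 278 CPM and 346 to 399 CPM. Of these 7, 5 were lower and 0 higher in MnDps at 4 h, and 5 were lower and 1 higher in Dps at 4 h. At 24 h the endothelial markers summed to 447 to 506 CPM in MnDps and 400 to 475 CPM in Dps. The 6 adipocyte markers summed to 103 to 168 CPM in MnDps at 4 h, 129 to 171 in Dps at 4 h and 44.6 to 82.5 in Control.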

How the data were processed

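Kidney RNA was sequenced as poly(A)-selected stranded libraries, per the labels' protocols. The authors deposited raw read counts per gene symbol, 1 column per library; the tools were STAR and featureCounts and the build was mm10, per the submitters' processing notes, with no versions or annotation stated. Libraries were placed in groups by their treatment and time labels. The replicate numbers used here were assigned within each group in the order of the library titles.

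Counts were filtered with filterByExpr, which removed 9567 genes, and fitted in 1 model of 5 group means (9 residual degrees of freedom, biological coefficient of variation 10.7%) with edgeR 4.0.16 in R 4.3.3. The robust quasi-likelihood test was used, with Benjamini-Hochberg adjustment within each of 9 comparisons. The SE is the log2 fold change divided by the square root of F. Alternatives were other size factors, no filter, a stricter filter (1 CPM in 3 libraries), DESeq2 1.42.0, limma 3.58.1 voom with library weights, only the groups compared, a depth term, an offset for each library's length and GC trend (length known for 96.5% of tested genes), and leaving out each library.

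The members and gene lists were chosen with earlier results of these data known. Genes named beside the members are the 3 largest called changes at 4 h of each list (markers included), paralogs and partners of members, and the 3 genes most alike each member. Tsg101, Becn1, Ifng and Elane were picked from their lists after their values were seen, and Ifnl2 and Ifnl3 complete the interferon genes of their list. Scripts were tested on simulated data.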

Additional observations from a re-analysis of the deposited data

Results flagged for a closer look

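In the fit to the counts, the difference of Herc6, the ISG15 ligase of mice, between materials was called as not the same at both times. MnDps exceeded Dps by 0.31 on the log2 scale at 24 h and differed from it by −0.34 at 4 h, an interaction of 0.65 ± 0.15 (95% interval 0.33 to 0.97, edgeR adjusted p = 0.00496). Both MnDps libraries at 24 h (15.4 and 13.3 CPM) lay above the 3 Dps libraries at 24 h (11.5, 12.2 and 10.9 CPM), and all 3 MnDps libraries at 4 h (129, 115 and 120 CPM) lay below the 3 Dps libraries at 4 h (151, 175 and 135 CPM). The difference at 24 h alone was not called (edgeR adjusted p = 0.223). The interaction was called for 1 of 5 members and for 29.4% of all tested genes, so such a call is not particular to Herc6. With the length and GC trend of each library removed the Herc6 interaction was 0.40 (edgeR adjusted p = 0.1) and was not called.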

How the results depend on the processing

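Over 45 member results and 22 alternatives, 934 values kept their direction and their side of the threshold, 27 lost the call, 3 gained it and 26 changed sign. Of these 26, 1 had been called, the difference of Herc6 between MnDps and Dps at 4 h (0.025 with the length and GC offset), and none was called after the change. With that offset the sign also changed for Ube2l6 (−0.001) and Usp18 (−0.012) in MnDps against Dps at 4 h, for Isg15 in the interaction (0.238) and for Herc6 in Dps at 24 h (0.198). Herc6 in Dps at 24 h, reported at −0.001, was also at 0.04 with the depth term and limma voom, 0.003 without the filter, 0.002 with median-of-ratios factors and DESeq2 and 0.001 with only the groups compared, and Usp18 was at −0.01 in the interaction with the depth term. Without single libraries, the results that changed sign ran from −0.055 to 0.055 for Herc6 in Dps at 24 h, −0.181 to 0.101 for Uba7 in MnDps against Dps at 4 h, and −0.223 to 0.319 for Ube2l6 and −0.035 to 0.323 for Usp18 in the interaction. The number of members called moved to 1 (Dps at 24 h), 0 (MnDps against Dps at 4 h) and 0 (interaction) with that offset, and to 0 (MnDps against Dps at 4 h) with the depth term. Leaving out single libraries gave 0 to 3 members called in Dps at 24 h, 0 to 4 in MnDps at 24 h, 1 to 3 in MnDps against Dps at 4 h and 1 to 2 in the interaction. All-gene counts of calls moved with the length and GC offset to 3728 for Dps at 4 h, 1493 for Dps at 24 h, 1170 for MnDps at 24 h, 3737 (MnDps against Dps at 4 h) and 2403 (interaction), against 2168, 2979, 1978, 6158 and 4368. With the depth term they were 1637 for Dps at 24 h, 1033 for MnDps at 24 h, 3558 (MnDps against Dps at 4 h), 68 (the same at 24 h) and 4225 (Dps at 24 h against 4 h). MnDps against Dps at 24 h had 121 calls, 558 with DESeq2, 716 with limma voom and 727 with only the groups compared; MnDps at 24 h against 4 h had 1878 with only the groups compared. Without single libraries, counts ran from 1435 to 2666 for Dps at 4 h, between 843 and 3861 for Dps at 24 h, between 300 and 2821 for MnDps at 24 h, 5 to 598 (MnDps against Dps at 24 h), 1336 to 3373 (MnDps at 24 h against 4 h) and 2724 to 4598 (interaction). Calls split into 1220 higher and 2508 lower with the length and GC offset in Dps at 4 h (1237 and 931 without it), 2277 and 1460 in MnDps against Dps at 4 h (3085 and 3073), 3557 and 2204 in Dps at 24 h against 4 h (3270 and 3356), and 680 and 1723 in the interaction (2034 and 2334). In MnDps against Dps at 24 h they split into 22 and 99, and into 165 and 393 (DESeq2), 204 and 512 (limma voom) and 231 and 496 (only the groups compared). The cause was not tested. A lone library left in a group was assumed to vary like the other groups. The 2 libraries of MnDps at 24 h, and 47 to 161 counts of Usp18 per control library, limit the precision at 24 h. No paired analysis was possible because the labels give no pairing and no replicate numbers, and those used here only follow the order of the library titles.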
